A study of Mus musculus with 6 samples.

Results

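Neurotrophic factors and their receptors were examined in RNA-Seq data from sciatic nerves of mice with and without Rnf40 in Schwann cells. Rnf40 is part of the E3 ligase that monoubiquitinates histone H2B. The members were given by name, namely the ligand genes Ntf3, Bdnf, Gdnf and Cntf and the receptor genes Ngfr, Ntrk2, Sort1, Gfra1 and Ret. All 9 were found among the 24015 genes that the count tables list. Control mice were Rnf40 fl/fl, and Rnf40ΔSC mice were Dhh::Cre, Rnf40 fl/fl, so that both carried floxed Rnf40 alleles and differed by the Cre transgene. This transgene is driven by the regulatory region of desert hedgehog, which is active in the Schwann cell lineage. All nerves were taken at postnatal day 14 from mice whose labelled strain is a mixed 129SvJ/C57Bl/6J background, while the methods name C3H in place of 129SvJ. Each genotype had 3 libraries, and each library was a pool of 3 nerves. The RNA thus came from whole nerve, in which fibroblasts, perineurial, vascular and immune cells lie beside the Schwann cells.

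Neurotrophins signal through Trk receptor tyrosine kinases and through the receptor p75NTR, the product of Ngfr, which also binds uncleaved proneurotrophins together with sortilin. GDNF binds GFRα1, which then engages the kinase Ret, and CNTF acts through CNTFRα together with LIFRβ and gp130. In peripheral nerve, Schwann cells and fibroblasts are sources of such factors for axons, immature and non-myelinating Schwann cells carry p75NTR, and CNTF is known as a product of myelinating Schwann cells.

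The libraries held between 1317167 and 2468765 counts, and levels are given as CPM, each gene's share of the counts in its library, scaled between libraries by TMM, edgeR's trimmed mean of M-values. A single read was worth 0.414 to 0.823 CPM, depending on the library. Rnf40 itself had 67.5, 65.5 and 73.7 CPM in control replicates 1, 2 and 3 and 46.8, 46.9 and 48.8 CPM in Rnf40ΔSC replicates 1, 2 and 3. Every Rnf40ΔSC library thus lay below every control library, and the source of the remaining reads was not tested. By staining, the paper found that Schwann cells of Rnf40ΔSC nerves had lost Rnf40 by birth, while in embryonic nerve other cells kept it. The log2 fold change of Rnf40 was -0.54 (standard error 0.14, edgeR adjusted p = 0.00242), and with total counts in place of TMM it was -0.27 and edgeR's adjusted p was 0.12 (between 0.00235 and 0.12 in all alternatives). Rnf40ΔSC replicate 3 stood apart from the rest on the second principal component (20.35, against -10.49 to 0.29) and carried more reads from skeletal muscle genes than the other Rnf40ΔSC libraries. The pools also differed in sex, since Eif2s3y on the Y chromosome had 0 CPM in control replicate 1 and in Rnf40ΔSC replicate 2 and between 52.6 and 94.5 CPM in the other four pools, so that each genotype held 1 pool without such reads.

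Among the members, reads of Ngfr and Ret fell and reads of Ntrk2 rose in Rnf40ΔSC nerves, and Gfra1 and Sort1 did not pass the test. None of the 4 ligand genes exceeded 3 reads in a library, which for Cntf cannot be read as a low level. Genotypes were compared with the quasi-likelihood test of edgeR, p-values were adjusted after Benjamini and Hochberg over the 11371 genes with enough reads to be tested, and a gene passed at an adjusted p of at most 0.05. By this rule 3 of the 5 members tested passed, against 31.6% of all genes tested. Of these, 2 were lower in Rnf40ΔSC nerves (16.2% of all genes) and 1 was higher (15.4%). When a log2 fold change of 0.8 or more in size and a mean of 20 or more normalized counts were required as well, Ngfr and Ret passed, against 8.78% of all genes in either direction, 5.05% lower and 3.73% higher. The libraries of the genotypes did not overlap in 3 of the 5 members and in 43.5% of all genes tested. With 5 members tested, these counts were described and nothing particular to the group was read from them. Their median log2 fold change was -0.09, and that of all genes tested was -0.0026. No tested member had fewer than 33 reads in any library, so that none entered the test through 1 genotype alone. From bulk nerve RNA alone, fewer cells of a type and less RNA per cell cannot be told apart, which holds for every difference given here. By staining of nerve sections, the paper found a similar share of Sox10-positive Schwann cells in both genotypes at this age.

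**Figure D1:**
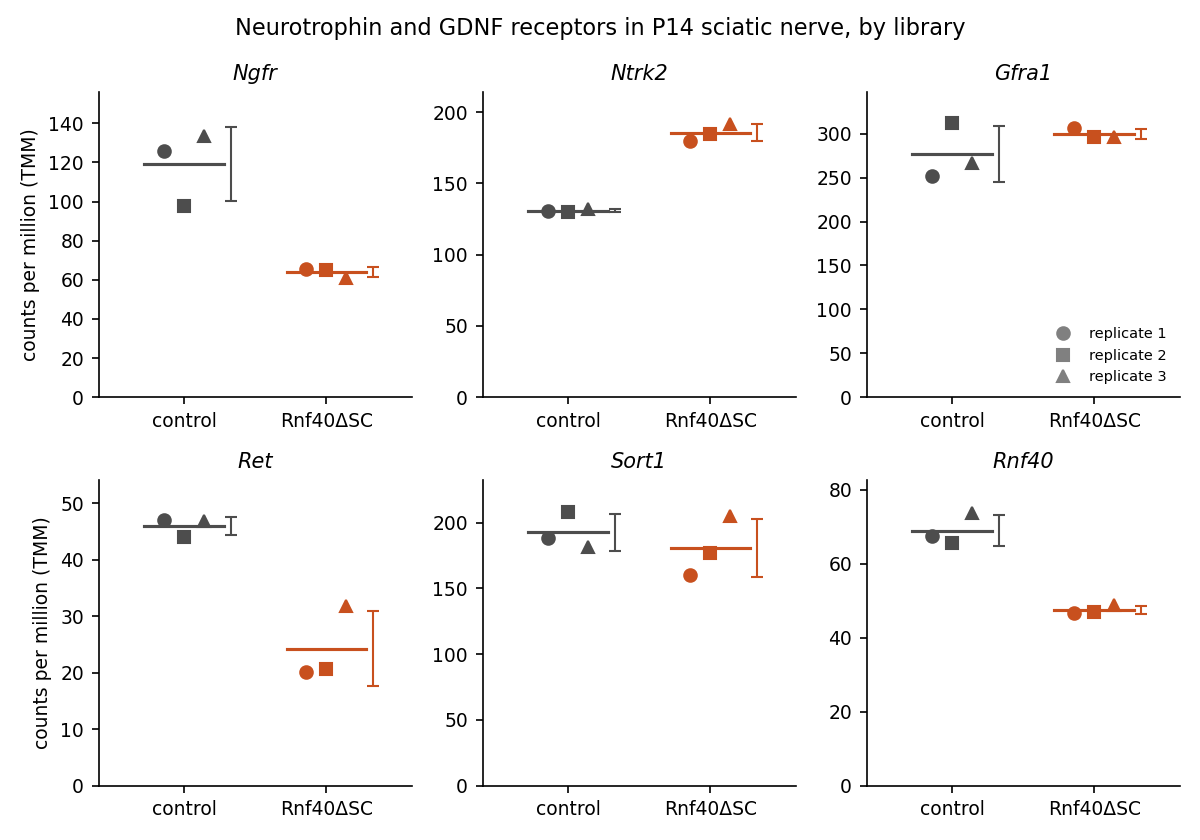
Level of each detected member and of Rnf40 in each library, in CPM after TMM scaling (vertical axis from 0). Symbols stand for replicates, horizontal lines for the mean of 3 libraries and bars for the SD, and the genotypes are separate in Ngfr, Ntrk2, Ret and Rnf40 and overlap in Gfra1 and Sort1.

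Of the ligands, Ntf3, which encodes neurotrophin-3, an autocrine survival factor of Schwann cells, had 0, 3 and 2 reads in control and 2, 0 and 1 reads in Rnf40ΔSC libraries. Bdnf, which encodes brain-derived neurotrophic factor, had 0 reads in all 6 libraries, and a count of 0 allows a level of up to 1.24 to 2.47 CPM, depending on the library (3 reads, counting error only). Gdnf, the gene for the ligand of GFRα1 and Ret, had 1, 0 and 2 reads in control and 0, 2 and 3 in Rnf40ΔSC libraries. All 3 genes thus stayed at or under 3 reads in each library, so that a difference between genotypes was not detectable at this depth.

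Cntf was listed with 0, 2 and 0 reads in control and 0, 2 and 0 in Rnf40ΔSC libraries. This low count cannot be read as a low level, since 78.9% of the exon bases of Cntf are also exon of Zfp91 on the same strand in the GENCODE vM1 annotation, and reads shared by overlapping genes may have been set aside when genes were counted. Zfp91 had 159.7, 183.1 and 182.6 CPM in control and 136.1, 142.5 and 155.2 CPM in Rnf40ΔSC libraries and was lower (log2 fold change -0.28, standard error 0.10, edgeR adjusted p = 0.0307), a call that was lost with total counts (-0.01), with DESeq2 (-0.27) and without 4 of the 6 libraries in turn. With single libraries left out, the log2 fold change of Zfp91 lay between -0.34 and -0.23. The read-through gene Zfp91Cntf, which the tables list separately, had 0 reads in all 6 libraries.

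Other ligand genes of these families were also sparse. The gene for neurotrophin-4, listed under the older symbol Ntf5, had at most 2 reads in any library. The GDNF relatives Nrtn and Artn had at most 2 reads and Pspn had 0. In the CNTF and LIF family, Lif had 10, 9 and 17 reads in control and 7, 7 and 9 in Rnf40ΔSC libraries (log2 fold change -0.91, standard error 0.42, edgeR adjusted p = 0.0945), Clcf1 had 1 to 6 reads, Ctf1 1 to 8, Osm at most 1 and Il6 0. None of the ligand genes named so far thus exceeded 17 reads in a library. Among 4 further trophic factors, the heparin-binding growth factor gene Mdk rose from 33.1 ± 7.90 to 49.6 ± 7.91 CPM (SD, n = 3 each; log2 fold change 0.57, standard error 0.18, edgeR adjusted p = 0.0123), with the lowest Rnf40ΔSC library at 42.2 and the highest control library at 40.6 CPM. Without control replicate 2 or Rnf40ΔSC replicate 1 the log2 fold change of Mdk was 0.39 or 0.45, and the edgeR adjusted p was 0.138 or 0.11 (range over all alternatives 0.000285 to 0.138). The call was also lost with DESeq2, where the log2 fold change was 0.59 without and 0.55 with its fold-change prior. Ptn and Manf did not pass, and Cdnf, with 6 to 18 reads, was not tested.

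**Figure D2:**
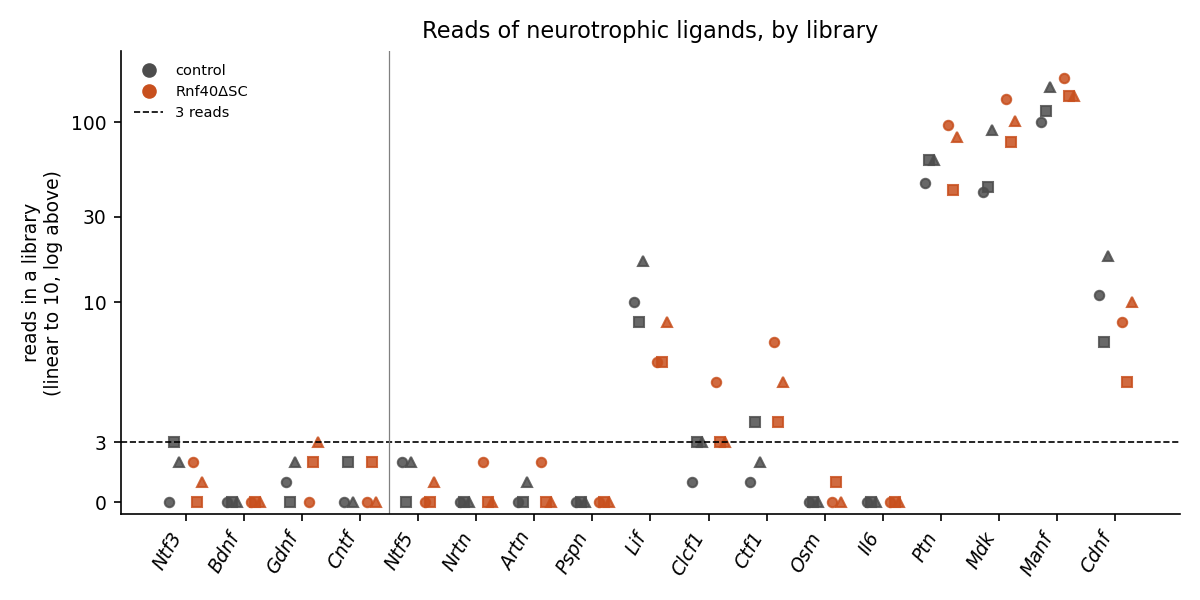
Reads of ligand genes in each library (vertical axis linear to 10 reads and logarithmic above), with the members to the left of the grey line. The dashed line marks 3 reads, and Ntf3, Bdnf, Gdnf and Cntf lie on or under it in all 6 libraries, while Ptn, Mdk and Manf lie between 41 and 177 reads.

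Proneurotrophins are cleaved by proprotein convertases, and of 4 such genes tested 2 were lower and none higher in Rnf40ΔSC nerves. Pcsk6, which encodes PACE4, had between 90.6 and 110.7 CPM in the control and between 29.6 and 30.2 CPM in the Rnf40ΔSC libraries. Its libraries were far apart between genotypes, and the log2 fold change was -1.75 (standard error 0.14, edgeR adjusted p = 1.14e-12). Pcsk5 was lower by a smaller amount (log2 fold change -0.33, standard error 0.11, edgeR adjusted p = 0.0143), and this call was lost with DESeq2 (-0.32 without and -0.31 with its fold-change prior), with total counts (-0.06), without control replicate 2 (-0.26) and without Rnf40ΔSC replicate 3 (-0.27), with adjusted p-values between 0.016 and 0.675 over all alternatives in edgeR and DESeq2. Furin and Pcsk7 had log2 fold changes of 0.02 and 0.12 and did not pass, but with total counts Furin was higher (0.29, edgeR adjusted p = 0.0384), so that the balance of this list depends on the scaling.

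Ngfr encodes p75NTR, which binds all neurotrophins with low affinity and lies on chromosome 11, from 95430132 to 95449049 on the minus strand in mm9. It had 126.0, 97.8 and 133.5 CPM in control replicates 1, 2 and 3 and 65.7, 65.0 and 60.8 CPM in Rnf40ΔSC replicates 1, 2 and 3. The lowest control library lay well above all Rnf40ΔSC libraries, which differed from each other by less than the control libraries did. The fall was 1.87-fold (log2 fold change -0.90, standard error 0.12, 95% interval -1.15 to -0.65, edgeR adjusted p = 3.63e-07). Without Rnf40ΔSC replicate 3, the log2 fold change of Ngfr was -0.86, and over all alternatives it lay between -1.03 and -0.63.

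Ntrk2 encodes TrkB, the receptor of BDNF and neurotrophin-4, and lies on chromosome 13, from 58907957 to 59235331 on the plus strand in mm9. It had 130.9, 130.0 and 131.7 CPM in control replicates 1, 2 and 3 and 179.9, 185.0 and 191.6 CPM in Rnf40ΔSC replicates 1, 2 and 3. Both genotypes were tight, and every Rnf40ΔSC library lay above every control library. The rise was 1.42-fold (log2 fold change 0.50, standard error 0.10, 95% interval 0.30 to 0.70, edgeR adjusted p = 0.000116). It was 0.49 on the log2 scale without Rnf40ΔSC replicate 3 and lay between 0.49 and 0.77 over all alternatives. A count per gene sums the full-length kinase and the truncated isoforms of TrkB (5 annotated transcripts), so that it does not say which isoform the reads came from.

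Ngfr and Ntrk2 were the members that passed the test and had an entry in the RefSeq promoter table, and their promoters are shown because the genes moved in opposite directions in the same nerves. The sequences run 5′ to 3′ from 250 bases before to 50 bases after the annotated start in GRCm38.p6, at chr11:95587649-95587948 on the minus strand and chr13:58806319-58806618 on the plus strand, coordinates which differ from those of mm9 given for the genes.
Ngfr promoter: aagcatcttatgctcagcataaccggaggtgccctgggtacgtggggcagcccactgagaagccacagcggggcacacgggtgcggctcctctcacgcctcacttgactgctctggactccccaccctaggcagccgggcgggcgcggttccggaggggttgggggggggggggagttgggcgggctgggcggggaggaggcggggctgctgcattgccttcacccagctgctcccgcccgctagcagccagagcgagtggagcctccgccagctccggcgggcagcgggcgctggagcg
Ntrk2 promoter: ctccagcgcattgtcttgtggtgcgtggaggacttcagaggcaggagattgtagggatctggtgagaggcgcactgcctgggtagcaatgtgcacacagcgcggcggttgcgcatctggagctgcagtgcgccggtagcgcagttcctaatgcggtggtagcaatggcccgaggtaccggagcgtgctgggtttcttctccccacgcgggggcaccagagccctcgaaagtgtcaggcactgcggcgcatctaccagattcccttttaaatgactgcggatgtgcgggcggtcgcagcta
Of the bases shown, 71.7% were G or C in the Ngfr window and 61.3% in the Ntrk2 window. Both strands were searched for GCGNGGGCG (EGR factors), TGANTCA (AP-1) and ACAAAG (SOX factors), which 5.55%, 7.81% and 18.7% of 32851 promoters of the table hold, and matches were to be written in capitals. Neither window held a match, which says only that these letters are not in these 300 bases. The table had 15 promoters for 7 of the members, and among them the AP-1 letters were found in 1 promoter each of Bdnf and Cntf and the SOX letters in 1 of Bdnf. The promoters of Ret and Sort1 are not shown.

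Another Trk receptor gene was not a member but bears on the level of Ntrk2. This gene, Ntrk3, which encodes TrkC, the receptor of neurotrophin-3, had 77.4, 102.3 and 95.1 CPM in control and 38.6, 52.5 and 58.3 CPM in Rnf40ΔSC libraries. Ntrk3 thus moved in the direction opposite to Ntrk2, again with no overlap between genotypes (log2 fold change -0.89, standard error 0.15, edgeR adjusted p = 6.68e-06). On the scale of CPM per kilobase of annotated exons, the ratio of the level of Ntrk2 to that of Ntrk3 was 0.586, 0.442 and 0.482 in control and 1.61, 1.23 and 1.14 in Rnf40ΔSC libraries. In all control nerves the level of Ntrk3 was thus above that of Ntrk2, and in all Rnf40ΔSC nerves it was below. With the longest annotated transcript as the length, the order in each library was the same (ratios of 0.490 to 0.651 in control and 1.27 to 1.80 in Rnf40ΔSC libraries).

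Sort1 encodes sortilin, a sorting receptor that binds proneurotrophins together with p75NTR, and lies on chromosome 3, from 108087009 to 108164429 on the plus strand in mm9. It had 188.6, 208.5 and 181.2 CPM in control and 160.6, 176.9 and 204.8 CPM in Rnf40ΔSC libraries. The genotypes overlapped, with Rnf40ΔSC replicate 3 near the highest control library. The difference was -0.09 on the log2 scale (standard error 0.10, 95% interval -0.30 to 0.12, edgeR adjusted p = 0.541), and its sign changed with total-count scaling. Of the exon bases of Sort1, 4.35% lie opposite to the antisense gene Gm12523, and the strand setting of the counting is not given in the sources used here.

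Of 7 related sorting receptors and co-receptors of p75NTR, 4 were tested, 2 were higher and none was lower in Rnf40ΔSC nerves. Sorcs1 had 257.7, 324.3 and 283.4 CPM in control and 350.3, 377.5 and 377.8 CPM in Rnf40ΔSC libraries (log2 fold change 0.35, standard error 0.10, edgeR adjusted p = 0.00452). Sorcs2, whose product also binds proneurotrophins with p75NTR, had 98.0, 97.2 and 107.1 CPM in control and 124.5, 122.5 and 147.7 CPM in Rnf40ΔSC libraries (log2 fold change 0.38, standard error 0.11, edgeR adjusted p = 0.00644). Both genes were higher in every Rnf40ΔSC library than in every control library, although by less than Ntrk2. Lingo1 and Tnfrsf19 did not pass, and Sorl1 (1 to 9 reads), Sorcs3 (0 to 5) and Rtn4r (0 to 7) lay below the filter.

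GDNF receptors form complexes of a ligand-binding GFRα subunit and Ret. Gfra1, on chromosome 19 from 58310094 to 58530399 on the minus strand in mm9, had 252.0, 312.5 and 266.5 CPM in control and 306.5, 296.2 and 296.3 CPM in Rnf40ΔSC libraries. Control replicate 2 was the highest of all, and the Rnf40ΔSC libraries lay within the control range. The log2 fold change of Gfra1 was 0.11 (standard error 0.10, 95% interval -0.08 to 0.31, edgeR adjusted p = 0.402), and with total-count scaling it was 0.38 and passed the test (edgeR adjusted p = 0.00137, range over all alternatives 0.00137 to 0.771). That scaling moved the median log2 fold change of all genes by 0.27, which is the same shift as that of Gfra1. An antisense gene, Gm16277, lies opposite to 7.60% of the exon bases of Gfra1.

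Ret, which encodes the receptor tyrosine kinase that signals for GDNF family ligands, lies on chromosome 6 from 118101766 to 118147762 on the minus strand in mm9. It had 46.9, 44.1 and 46.9 CPM in control replicates 1, 2 and 3 and 20.2, 20.6 and 31.9 CPM in Rnf40ΔSC replicates 1, 2 and 3. All Rnf40ΔSC libraries lay below all control libraries, and Rnf40ΔSC replicate 3, the library that stood apart, was the nearest to control. The fall was 1.87-fold (log2 fold change -0.90, standard error 0.19, 95% interval -1.28 to -0.53, edgeR adjusted p = 0.000223). Without Rnf40ΔSC replicate 3 it was larger, at -1.16 on the log2 scale (edgeR adjusted p = 6.29e-06), and over all alternatives the log2 fold change lay between -1.16 and -0.63, with adjusted p-values from 6.29e-06 to 0.00728 in edgeR and DESeq2. Within the GDNF receptor, Ret was thus lower in Rnf40ΔSC nerves, while the level of its partner Gfra1 was not shown to differ after TMM scaling.

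Of 9 other genes for GDNF family ligands and receptors, 4 were tested, 1 was lower and 1 was higher in Rnf40ΔSC nerves. Gfra3, the gene for the artemin receptor, had 25, 19 and 13 reads in control libraries and 1, 0 and 1 reads in Rnf40ΔSC libraries. Summed over the libraries and scaled by their sizes, these 57 and 2 reads gave a level 34.6-fold higher in control nerves, with an exact 95% interval from 9.15 to 293 that covers counting error only, and the gene passed the test (edgeR adjusted p = 4.52e-07). In CPM the control libraries of Gfra3 were further apart than in reads, at 20.6, 10.7 and 5.80, a spread that the interval leaves out. Gfra3 entered the test through the control libraries alone. Gfra4 had 2 reads in each control library and 8, 4 and 11 in Rnf40ΔSC libraries, a ratio of 3.16 between the sums (exact 95% interval 1.25 to 9.48, counting error only), and lay below the filter. Gfra2, the gene for the neurturin receptor, had 70.7 ± 8.23 CPM in control and 74.8 ± 1.85 CPM in Rnf40ΔSC nerves (SD, n = 3 each; log2 fold change 0.07, standard error 0.13, edgeR adjusted p = 0.718). Ncam1, whose product is an alternative GDNF co-receptor and is also a marker of immature Schwann cells, rose from 181.4 ± 18.9 CPM in control to 408.1 ± 27.5 CPM in Rnf40ΔSC nerves (SD, n = 3 each; log2 fold change 1.16, standard error 0.10, edgeR adjusted p = 3.76e-12). Gas1 did not pass, and Gfral had 0 reads. Scaled by total counts, 1 gene of this list was lower and 2 were higher.

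Among receptor subunits for CNTF, Cntfr and Il6st did not pass the test. Cntfr had 35.4 ± 3.16 CPM in control and 32.5 ± 4.92 CPM in Rnf40ΔSC nerves, and the shared signalling subunit Il6st had 361.0 ± 23.3 and 351.2 ± 34.3 CPM (SD, n = 3 each). Stat3, the main transducer of the family, had a log2 fold change of 0.10, and its feedback target Socs3 one of -0.10, neither of which passed.

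Downstream of the receptors, 5 of the 20 tested partners of p75NTR and Trk adaptors passed, against 31.6% of all genes tested, and the calls were divided after TMM scaling. Among 9 tested genes for intracellular partners of p75NTR, Arhgdia and Adam17 were lower and Ngfrap1 was higher. Arhgdia, which encodes RhoGDI, differed by -0.42 on the log2 scale (standard error 0.09, edgeR adjusted p = 0.000535). Ngfrap1, the gene for a p75NTR-associated death executor, differed by 0.54 (standard error 0.19, edgeR adjusted p = 0.0298). Adam17, which encodes a sheddase of p75NTR, differed by -0.30 (standard error 0.11, edgeR adjusted p = 0.0298). Among 11 tested Trk adaptors, Frs2 and Grb2 were higher and none was lower. Frs2, the docking protein of Trk and Ret, had 87.3, 92.7 and 95.1 CPM in control and 137.4, 138.1 and 137.0 CPM in Rnf40ΔSC libraries (log2 fold change 0.58, standard error 0.11, edgeR adjusted p = 4.61e-05), and its libraries did not overlap. Grb2 differed by 0.41 on the log2 scale (standard error 0.14, edgeR adjusted p = 0.0213). The calls of Adam17, Grb2 and Ngfrap1 were lost with DESeq2 and when single libraries were left out, with adjusted p-values of up to 0.824, 0.113 and 0.166 over all alternatives in edgeR and DESeq2. Their log2 fold changes were close to the main values in DESeq2 without the prior (-0.30, 0.42 and 0.54) and ranged from -0.38 to -0.21, 0.37 to 0.49 and 0.47 to 0.62 with single libraries left out. With total counts the log2 fold changes of Arhgdia and Adam17 were -0.15 and -0.04 and no longer passed, and 2 partners of p75NTR and 4 Trk adaptors were higher and none was lower, so that the division of the calls depends on the scaling. When Rnf40ΔSC replicate 3 was left out, 3 partners of p75NTR were lower and 1 was higher, and 1 Trk adaptor was lower and 2 were higher. Of the other partners, Bex1 had at most 2 reads and the adaptor gene Shc3 at most 3.

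Genes known from repair Schwann cells, which form after injury and carry p75NTR and GDNF, did not pass in either direction after TMM scaling. Jun had 100.3 ± 9.79 CPM in control and 108.1 ± 12.2 CPM in Rnf40ΔSC nerves (SD, n = 3 each; log2 fold change 0.11, standard error 0.12, edgeR adjusted p = 0.522), and with total counts it was higher (0.38, edgeR adjusted p = 0.00946). Gap43 and Lif had log2 fold changes of -0.44 and -0.91 and did not pass, and Shh, Olig1 and Artn had at most 2 reads. Over 66 other pathway genes found in the tables, each counted once, 48 were tested, 6 were lower and 7 were higher in Rnf40ΔSC nerves, with a median log2 fold change of -0.06. Set against 16.2% lower and 15.4% higher among all genes tested, these shares do not exceed the background. With total counts 3 of the 48 were lower and 15 were higher, with a median of 0.20, so that the balance between the directions depends on the scaling.

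**Figure D3:**
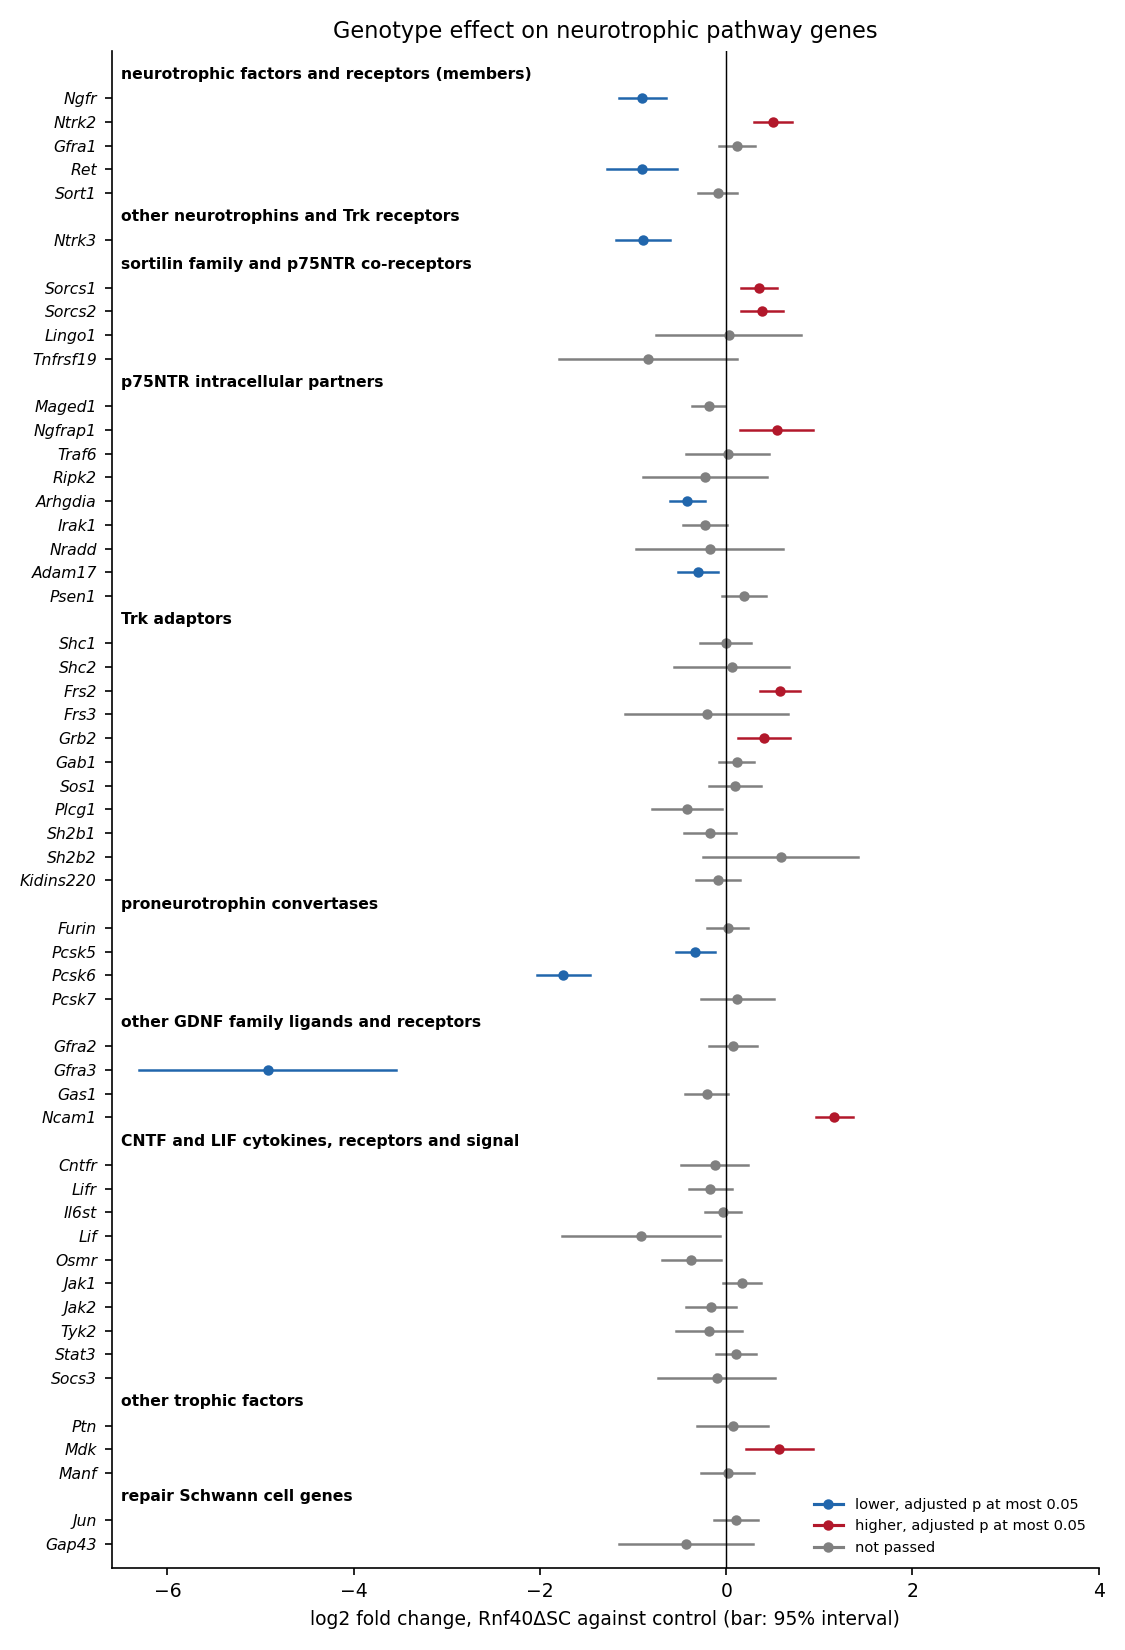
Log2 fold change of each tested pathway gene between Rnf40ΔSC and control nerves (points) with its 95% interval (bars), by the role of the genes. Genes past an adjusted p of 0.05 are coloured, and among the receptors Ngfr, Ret and Ntrk3 lie near -0.90, Ntrk2 at 0.50 and Gfra1 and Sort1 close to 0; the fitted value of Gfra3 rests on a group with at most 3 reads in a library.

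Levels of different members can be compared per kilobase of exons. In control nerves the order by CPM per kilobase was Gfra1 (50.6 ± 5.77), Ngfr (34.6 ± 5.46), Sort1 (25.5 ± 1.87), Ntrk2 (8.67 ± 0.057) and Ret (6.26 ± 0.222; SD, n = 3 each). In Rnf40ΔSC nerves it was Gfra1 (54.7 ± 1.08), Sort1 (23.9 ± 2.96), Ngfr (18.5 ± 0.763), Ntrk2 (12.3 ± 0.388) and Ret (3.30 ± 0.901). The order of Ngfr and Sort1 was thus exchanged between genotypes. In each genotype all 3 libraries of a gene lay above those of the next gene in this order, although Ngfr and Sort1 came close in control nerves, where the lowest level of Ngfr was 28.4 and the highest of Sort1 27.6 CPM per kilobase. With the longest transcript in place of all annotated exons, Sort1 reached 30.7 CPM per kilobase in control replicate 2, which is above the 28.4 of Ngfr, and in Rnf40ΔSC nerves Ntrk2 ranked above Ngfr. The distance between Gfra1 and Ret, which act in the same receptor, was present in all libraries, with Gfra1 at 46.0 to 57.1 and Ret at 2.75 to 6.39 CPM per kilobase. Below these genes, Ntf3, Gdnf and Bdnf were at the floor of 3 reads and their order was not read. Cntf was also at this floor but was not placed, since its low count cannot be read as a low level.

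**Figure D4:**
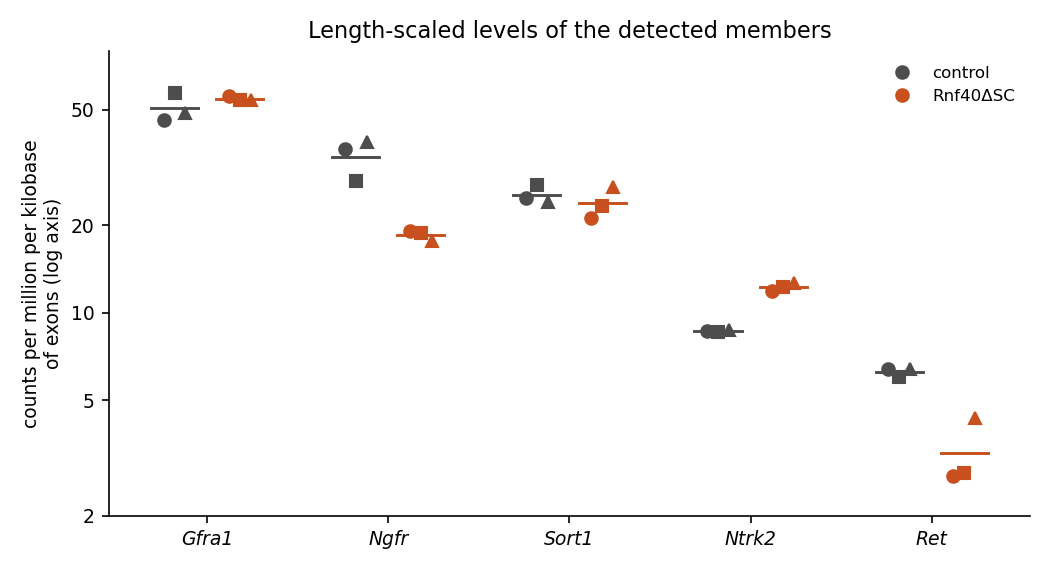
Level of the detected members in each library, in CPM per kilobase of annotated exons (logarithmic axis), with lines at the mean of 3 libraries. Ngfr falls below Sort1 in Rnf40ΔSC libraries, and Gfra1 lies above all other members in both genotypes.

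For each member that passed the test, the genes with the nearest profile over the 6 libraries were found by the root mean square difference of log2 CPM, each centred on its mean. Nearest to Ngfr were Col4a3 (difference 0.077), Bri3 (0.099) and H1f0 (0.102). For Ntrk2 they were Srrm1 (0.021), Rab31 (0.022) and Foxp1 (0.032), and for Ret they were Ntn4 (0.062), Fhod1 (0.065) and Cbr2 (0.093). These are likenesses over 6 values dominated by genotype, and nothing on shared function was read from them.

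Markers of cell types in the nerve also differed between genotypes, in both directions. The Schwann cell lineage markers Sox10, S100b and Erbb3 were all lower in Rnf40ΔSC nerves, with a summed level, led by Sox10, of 1058, 1193 and 1178 CPM in control and 684, 654 and 638 CPM in Rnf40ΔSC libraries. Of the myelinating Schwann cell markers Mbp, Pmp22, Prx, Mag and Egr2, Egr2 was higher and the other 4 were lower, and their sum, led by Pmp22, went from 75610, 84040 and 80660 to 22930, 21310 and 20790 CPM. Of 7 markers of immature or non-myelinating Schwann cells, the group in which p75NTR is usually found, 5 were higher, L1cam was lower and Gap43 did not pass, with sums, led by Pou3f1, of 672, 707 and 639 CPM in control and 1416, 1782 and 1449 CPM in Rnf40ΔSC libraries. One of the 5, Gfap (1, 5 and 0 against 12, 9 and 17 reads), entered the test through the Rnf40ΔSC libraries alone, and its call was lost without control replicate 3 (log2 fold change 1.55, edgeR adjusted p = 0.0746) and with DESeq2 without the prior (2.34, adjusted p = 0.0501), against 2.31 in the main fit and 4.08 without control replicate 2. The other 4 were Sox2, Pou3f1, Ncam1 and Ednrb. Of these, Pou3f1 is the gene for Oct6, which the paper uses as a marker of the promyelinating stage. Pou3f1 had 214.9, 204.0 and 171.0 CPM in control and 721.7, 985.0 and 722.9 CPM in Rnf40ΔSC libraries. The rise of the sum was thus in large part that of Pou3f1. L1cam of the same list fell, as Ngfr did (log2 fold change -1.87, standard error 0.14, edgeR adjusted p = 7.64e-14), so that the list was divided.

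Markers of several other cell types were also lower in Rnf40ΔSC nerves after TMM scaling. Among fibroblast markers 3 of 4 were lower, with sums led by Col1a1 of 14480, 14210 and 15510 CPM in control and 12050, 11290 and 11950 CPM in Rnf40ΔSC libraries. All 3 tested perineurial markers were lower (sums led by Itgb4 of 836, 971 and 957 against 531, 444 and 496 CPM), as were all 4 endothelial markers (sums led by Cdh5 of 581, 510 and 591 against 369, 376 and 438 CPM). The control sums of these lists thus all lay above those of Rnf40ΔSC libraries after TMM scaling. With total counts the fibroblast sums overlapped (13350, 12620 and 14070 against 12850, 12380 and 13210 CPM), no fibroblast marker was lower and Lum was higher, and the endothelial sums overlapped too, with 1 of 4 markers lower, while perineurial sums stayed apart, with 2 of 3 markers lower. Pericyte and smooth muscle markers were lower in 2 of 4 cases (sums led by Pdgfrb of 804, 579 and 666 against 423, 434 and 532 CPM), and macrophage markers in 2 of 3 tested (sums led by Csf1r of 159, 131 and 168 against 94.0, 95.6 and 108 CPM). By staining, however, the paper counted more Iba1-positive macrophages in Rnf40ΔSC nerves at this age. Aif1, the gene for Iba1, had at most 3 reads in any library and was not tested. Of the mast cell markers 2 of 3 were lower (sums led by Cpa3 of 45.3, 54.2 and 67.4 against 40.8, 31.9 and 32.3 CPM), and of the adipocyte markers 2 of 3 (sums led by Adipoq of 126.8, 97.8 and 151.8 against 71.7, 75.6 and 70.3 CPM). With total counts the pericyte, macrophage and mast cell sums overlapped between genotypes, while the adipocyte sums stayed apart. Under that scaling 1 of 4 pericyte and smooth muscle markers and 2 of 3 macrophage markers were lower. Of the mast cell markers 1 of 3 was then lower, and of the adipocyte markers 1 of 3.

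T cell markers were close to 0 (sums of at most 2.07 CPM), and neuronal markers had sums, led by Snap25, of 9.88, 14.1 and 9.37 CPM in control and 19.3, 20.6 and 14.9 CPM in Rnf40ΔSC libraries, with Snap25, the single one tested, higher. Snap25 entered the test through the Rnf40ΔSC libraries alone (3, 6 and 8 against 23, 13 and 23 reads), and its call was lost with DESeq2 without the prior, where its log2 fold change of 1.53 was close to that of the main fit (adjusted p = 0.0536). Skeletal muscle markers, led by Myh4, summed to 3434, 2522 and 1872 CPM in control and to 71.7, 174 and 2386 CPM in Rnf40ΔSC replicates 1, 2 and 3, and none of the 6 passed the test. Without Rnf40ΔSC replicate 3, muscle reads would thus be separate between genotypes. The part of the other cell types in the levels of the members was not tested.

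**Figure D5:**
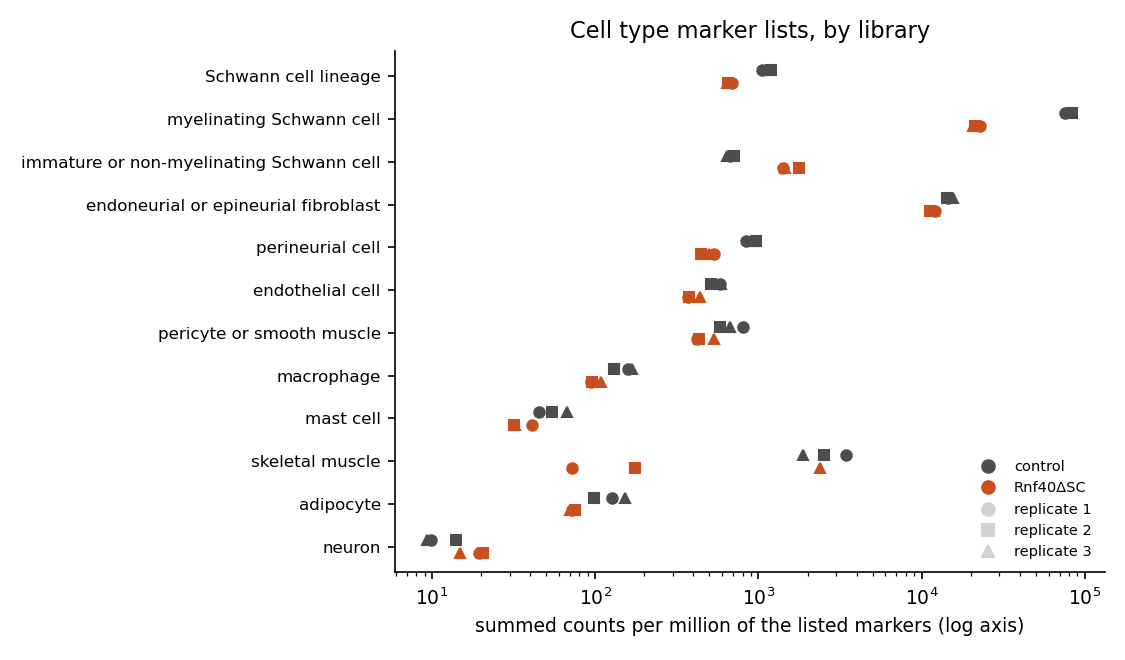
Summed CPM of each list of cell type markers in each library (logarithmic axis), with symbols for replicates. Sums of Schwann cell lineage, myelinating, fibroblast, perineurial and endothelial markers are lower in all Rnf40ΔSC libraries (TMM scaling). Those of immature or non-myelinating Schwann cell markers, led by the promyelinating gene Pou3f1, are higher, and skeletal muscle markers of Rnf40ΔSC replicate 3 lie within the control range.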

How the data were processed

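RNA-Seq of P14 sciatic nerve was available for 3 control and 3 Rnf40ΔSC libraries, grouped by the genotype in the labels, which call them biological replicates. The authors aligned reads to mm9 with TopHat, assigned unique reads with HTSeq and deposited the resulting raw counts, whole numbers per gene without normalization. The labels also list mm10 and Bowtie2 2.1.0 and another library kit than the methods. Annotation, counting mode and strand setting are not given in the sources used here. No row lacked a gene name. Library totals were 1317167, 1992622 and 2468765 counts in control and 2184268, 1459387 and 2186710 in Rnf40ΔSC libraries. Replicates differed beyond sampling noise (chi-square per degree of freedom 1.78 to 5.21 between libraries of a genotype).

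The test was edgeR 4.0.16 under R 4.3.3 (filterByExpr, TMM, robust quasi-likelihood fit, genotype as the single term, Benjamini-Hochberg over 11371 genes). Alternatives were RLE or total-count scaling, DESeq2 1.42.0 (fold-change prior on or off), no filter or a minimum of 10 counts per library, a block for the replicate number, leaving out single libraries, limits on fold change and mean, and another transcript length. The procedure was tested on simulated counts, where it found most of the changed genes but made a larger share of false calls than the adjusted p threshold states. Principal components used the 500 most variable genes in log2 CPM with a prior count of 2. Groups with at most 3 reads in each library were treated as undetected, and ratios of summed reads are given for 2 genes with such a group (exact Clopper-Pearson intervals of the split of reads). Exons and gene positions came from GENCODE vM1 (mm9), in which 20763 symbols occur exactly once, and promoters from RefSeq (GRCm38.p6), which had entries for 7 of the 9 members. Named were the members, Rnf40, each pathway-list gene that passed (up to 6 a list), genes below the filter by their range and the 3 nearest profiles. Other genes from these lists that did not pass were named after their values were seen. Some genes of the pathway and marker lists are not reported here and stand in no count, sum or figure of those lists. The members and gene lists were chosen with earlier results of these data known. Ntf4 and Adgre1 are listed under the older symbols Ntf5 and Emr1.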

Additional observations from a re-analysis of the deposited data

How the results depend on the processing

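Ngfr, Ntrk2 and Ret kept their direction and passed the adjusted p threshold in all 13 alternatives that changed scaling, test, filter, block or libraries. Leaving out 1 library at a time gave log2 fold changes of -1.03 to -0.80 for Ngfr, 0.49 to 0.54 for Ntrk2 and -1.16 to -0.76 for Ret. Sort1 changed sign to 0.18 with total-count scaling, which shifted all genes by 0.27, and ranged from -0.19 to 0.003 when single libraries were left out, without passing in any of them. With total counts 880 genes were lower and 3766 higher, and 2 neurotrophic genes were higher, Ntrk2 and Gfra1. DESeq2 called 1170 lower and 1097 higher genes without and 1191 and 1123 with its fold-change prior; the cause of these smaller counts was not tested. The additional limits on fold change and base mean left 574 lower and 424 higher genes and 0 higher neurotrophic genes, by their construction, since Ntrk2 has a log2 fold change of 0.50. The replicate number did not pair the libraries (correlations of deviations -0.09, -0.02 and -0.06), and with it as a block Ngfr, Ntrk2 and Ret had log2 fold changes of -0.90, 0.50 and -0.92, and no call changed among the members, Rnf40 and the pathway genes that had passed. With at least 10 counts in every library, Gfra3 could not be tested. Depth limits the ligands, for which changes under a few reads per library were not detectable, and the count of Cntf is also limited by the exons it shares with Zfp91. The p-values rest on 3 pools per genotype.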
